A study of Caenorhabditis elegans with 8 samples.

Results

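The major sperm protein genes, named msp, form a large family of near-identical copies in the nematode Caenorhabditis elegans. Their RNA was followed here in crosslinked material purified with the sperm-fate protein FOG-3. The members are the gene IDs of the deposited read count table whose WormBase number lies in a block of 43 consecutive numbers, WBGene00003424 to WBGene00003466. Of these numbers, 30 had a row in the table, out of 12240 gene rows in all, and the other 13 had none. The ID number alone decided which IDs are members, but the block was chosen with earlier results of these data known. Each row of the table held at least 1 read, so the members are the IDs of the block that were seen in some library.

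The study used iCLIP, in which ultraviolet light fixes RNA to the protein it touches, the protein is purified, and the attached RNA fragments are sequenced. All libraries came from fourth-stage (L4) larvae grown on plates and carrying a FLAG epitope-tagged FOG-3 inserted as a single genomic copy. In the 4 FOG-3 libraries the protein was purified with the FLAG antibody. The 4 controls came from the same worms and the same protocol with the antibody left out. The design text calls the 4 libraries of each set biological replicates. Both sets carry the transgene, so the comparison is between antibody and no antibody, not between worms with and without FOG-3. Whether the endogenous fog-3 gene was intact and what sex the larvae were is not given in the sources used here. The libraries are called by the 4-letter tags of their columns, because no label ties a tag to a numbered sample.

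Major sperm protein is made only in the male germline and in the sperm-producing germline of the hermaphrodite larva, where spermatocytes transcribe the genes strongly in late larval life. The protein polymerises into filaments that push the pseudopod of the crawling sperm forward, in place of actin. Sperm also release it as a hormone that triggers oocyte maturation and ovulation. FOG-3 acts earlier, in the germ cell's choice between sperm and oocyte fate. The msp copies lie in genomic clusters and differ from one another at few positions. The current RefSeq table for the worm (assembly WBcel235) lists 35 genes named msp, of which 31 are protein-coding and 4 are pseudogenes. Among the 31, 12 have another msp gene as an adjacent protein-coding gene. None (0) of the deposited IDs could be paired with a symbol through that table, so single copies are given by ID. Their sequences are not analysed here.

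Reads were few throughout. The FOG-3 libraries held 76790 to 186739 gene-assigned reads and the controls 14964 to 74892, so that 1 read was worth 5.36 to 13.0 RPM in FOG-3 libraries and 13.4 to 66.8 RPM in controls. RPM stands for reads per 1000000 gene-assigned reads of a library. Intervals below are exact Clopper-Pearson or exact Poisson-ratio intervals at the 95% level, and they cover counting error only. The 30 msp IDs together held 458 reads, of which 403 were FOG-3 and 55 control reads. Of all gene-assigned reads this was 0.0914% after FOG-3 purification, against 0.0395% in the controls. The files give no measure of msp RNA in the larvae themselves, so its level in the worm and its recovery with FOG-3 cannot be told apart.

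The pooled msp reads made up a larger share of gene-assigned reads in every FOG-3 library than in any control. FOG-3 libraries held 63 msp reads (CGGA), 81 (GGCA), 102 (GGTT) and 157 (TGGC), against 0 (AATA), 3 (CCGG), 9 (TTAA) and 43 (TTGT) in controls. Scaled to total gene-assigned reads, this was 782 RPM in CGGA, 835 in GGCA, 1328 in GGTT and 841 in TGGC, against 0 in AATA, 161 in CCGG, 601 in TTAA and 574 in TTGT. The groups did not overlap on this scale, although CGGA, the lowest FOG-3 value, was only 1.30 times that of the highest control. The mean was 946 ± 256 RPM with the FLAG antibody and 334 ± 300 RPM without it (SD, n = 4 each). Pooled over libraries, 914 RPM in FOG-3 stood against 395 in controls, a ratio of 2.31 (counting interval 1.74 to 3.12). That interval takes each read as an independent molecule and leaves out the spread between libraries, so it is no test of the groups. No p-value is given for the pool, because the members were chosen with earlier results of these data known.

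**Figure D1:**
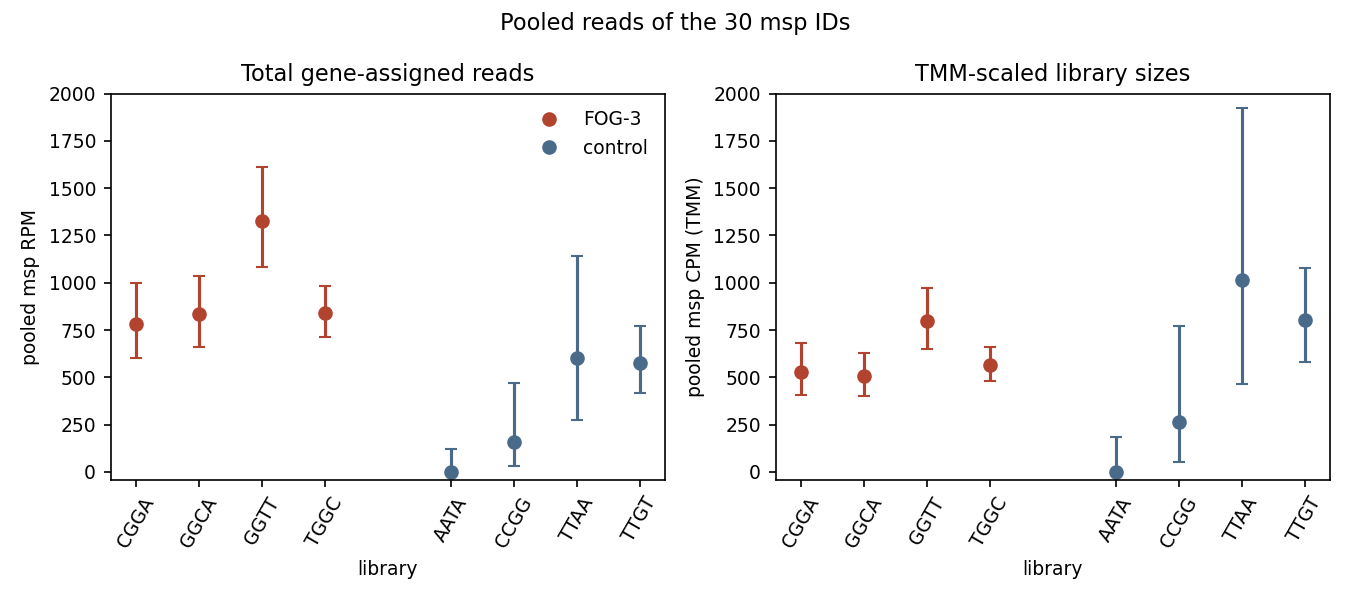
Pooled reads of the 30 msp IDs in each library, in RPM (left panel) and as CPM of TMM-scaled library size (right panel). Points are libraries and bars are 95% Clopper-Pearson intervals. The 4 FOG-3 libraries sit between 782 and 1328 on the left, above all controls, and between 508 and 800 on the right, where the controls span 0 to 1014.

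This separation was not kept under TMM scaling, which sets library sizes from a trimmed mean of the log ratios between libraries. The method takes most genes as unchanged. In the edgeR fit with these factors the median log2 fold change over the 886 tested gene IDs was 0.74, and 45.3% were called higher and 27.5% lower in FOG-3. The TMM factors, set from these 886 gene IDs, were 1.47 to 1.66 in FOG-3 libraries and 0.593 to 0.716 in controls. They lower FOG-3 values and raise control values. On this scale the pool had 531 CPM (the same unit over TMM-scaled library sizes) in CGGA, 508 in GGCA, 800 in GGTT and 563 in TGGC, against 0 in AATA, 264 in CCGG, 1014 in TTAA and 801 in TTGT. The groups overlapped, with controls both below and above all FOG-3 libraries. The mean was 600 ± 135 CPM in FOG-3 and 520 ± 469 in controls (SD, n = 4 each). The pooled ratio of FOG-3 over control was 1.00 (counting interval 0.75 to 1.35).

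The controls were uneven. Control AATA had no (0) msp read among 30631 gene-assigned reads, which allows up to 97.9 RPM at 3 reads (exact upper bound 120). Control TTGT had 43, with a counting interval of 416 to 773 RPM. Both bounds take each read as an independent molecule, and they are no test of the difference between these libraries. Gene IDs too rare to pass the test's filter held 7.55% of the reads of AATA, 4.37% in CCGG, 4.82% in TTAA and 9.41% in TTGT. Whether library quality has a part in the 0 of AATA was not tested. Control TTGT supplied 78.2% of all control msp reads and 53.8% of the control gene-assigned reads. Without TTGT the pooled ratio of RPM was 4.89, with 12 control msp reads left, and with TMM it was 2.97. Without AATA these ratios were 1.80 and 0.85.

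Among FOG-3 libraries, GGTT had the highest pooled RPM. Its counting interval was 1083 to 1612 RPM, beside 601 to 1001 in CGGA, 663 to 1037 in GGCA and 714 to 983 in TGGC. These intervals too take reads as independent, and they are no test of the difference between the libraries. An outlier test of GGTT is given below among the results flagged for a closer look. GGTT supplied 25.3% of the FOG-3 msp reads and 17.4% of the FOG-3 gene-assigned reads. Its share of reads in gene IDs below the filter was 24.5%, inside the range of 21.4% to 30.3% over the FOG-3 libraries. Without GGTT the pooled ratio was 2.09 in RPM and 0.86 with TMM.

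At equal depth more msp IDs, and more gene IDs of the whole table, were found in FOG-3 libraries. With every library reduced to 14964 reads, the expected number of msp IDs with a read was 9.28 in CGGA, 9.36 in GGCA, 12.8 in GGTT and 9.47 in TGGC, against 0 in AATA, 2.4 in CCGG, 9 in TTAA and 6.84 in TTGT. Control TTAA lay just below the FOG-3 libraries, with 9 IDs that held 1 read each. Of all gene rows, 25.1% to 30.6% had a read at that depth in FOG-3 libraries, against 8.09% to 13.8% in controls. The msp IDs had 30.9% to 42.6% in FOG-3 libraries, against 0% in AATA, 8.01% in CCGG, 30% in TTAA and 22.8% in TTGT. At full depth 21 to 26 of the 30 IDs had a read in each FOG-3 library, against 0 in AATA, 3 in CCGG, 9 in TTAA and 17 in TTGT. Of all gene rows, 53.2% to 81.0% had a read in FOG-3 libraries, against 18.7% in AATA, 9.30% in CCGG, 9.0% in TTAA and 35.4% in TTGT. A read in all 4 FOG-3 libraries was found for 17 of the 30 msp IDs, where 35.2% of all gene rows had one.

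The msp pool was compared with the rest of the table, as a description without a test. All gene IDs that did not pass the filter, a class that contains every msp ID, together had 3.45 times the RPM in FOG-3 libraries as in controls, against 2.31 times for the msp pool. As a share of that class, msp reads made up 0.365% in CGGA, 0.306% in GGCA, 0.542% in GGTT and 0.277% in TGGC, against 0% in AATA, 0.368% in CCGG, 1.25% in TTAA and 0.610% in TTGT. Here the control values lay on both sides of all FOG-3 values. When the 10 most abundant gene IDs of the table were left out of the total, the pool had 1629 ± 427 RPM of the remaining total in FOG-3 and 1483 ± 1345 in controls (SD, n = 4 each), and the groups again overlapped. The non-overlap in plain RPM was thus not seen with TMM, as a share of the gene IDs below the filter, or without the 10 most abundant gene IDs.

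Single IDs were unequally filled. Of the 458 reads, 183 fell on 5 IDs with 31 to 42 reads each, 220 on 12 IDs with 11 to 26 reads, 52 on 10 IDs with 2 to 9 reads and 3 on 3 IDs with 1 read each. The 5 fullest IDs were WBGene00003431, WBGene00003426, WBGene00003444, WBGene00003448 and WBGene00003434. They took 39.5% of msp reads in FOG-3 libraries (interval 34.7% to 44.4%) and 43.6% in controls (30.3% to 57.7%), shares whose intervals overlap. In controls 23 of their 24 reads came from TTGT.

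The level of the fullest ID, WBGene00003431, was similar across FOG-3 libraries. It had 6 reads in CGGA, 9 in GGCA, 7 in GGTT and 15 in TGGC, against 5 in TTGT and 0 in the other 3 controls. In RPM it was above every control in every FOG-3 library, and its pooled ratio was 2.33 (interval 0.92 to 7.61). With TMM its ratio was 1.01, so the direction rests on the scaling. WBGene00003426 had 6 reads in CGGA, 6 in GGCA, 9 in GGTT and 14 in TGGC, against 5 in TTGT and 0 in the other 3 controls, a ratio of 2.21 (0.86 to 7.22). Its lowest FOG-3 library lay below TTGT in RPM.

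In raw reads GGTT was the highest library for the next 3 IDs. In RPM it was also the highest for WBGene00003426. WBGene00003444 had 6 reads in CGGA, 6 in GGCA, 12 in GGTT and 9 in TGGC, against 4 in TTGT and 0 in the other 3 controls. WBGene00003448 had 5 reads in CGGA, 6 in GGCA, 9 in GGTT and 8 in TGGC, against 5 in TTGT and 0 in the other 3 controls. WBGene00003434 had 3 reads in CGGA, 6 in GGCA, 9 in GGTT and 8 in TGGC, against 0 in AATA, 0 in CCGG, 1 in TTAA and 4 in TTGT. GGTT gave the most reads to WBGene00003444, WBGene00003448 and WBGene00003434 although TGGC was the deepest library. Their pooled RPM ratios were 2.60 (interval 0.93 to 10.1), 1.77 (0.67 to 5.86) and 1.64 (0.62 to 5.47).

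Of the next 5 IDs, WBGene00003432 had the highest ratio of all 30 with a control read. It had 2 reads in CGGA, 4 in GGCA, 4 in GGTT and 11 in TGGC, against 1 in TTAA and 0 in the other 3 controls, a pooled ratio of 6.63 with a counting interval of 1.07 to 274. WBGene00003463 had 24 reads with the antibody, against 2 in controls, a ratio of 3.79 (0.94 to 33.0). WBGene00003425 had 21 and 2, a ratio of 3.31 (0.81 to 29.1). In both, TGGC, the deepest library, gave the most reads. WBGene00003452 had 19 and 2, a ratio of 3.00 (0.72 to 26.5). WBGene00003466 had 16 FOG-3 reads and 4 control reads, a ratio of 1.26 (0.41 to 5.19), with control reads in every control but AATA. With WBGene00003464 it was 1 of 2 msp IDs seen in 3 controls.

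**Figure D2:**
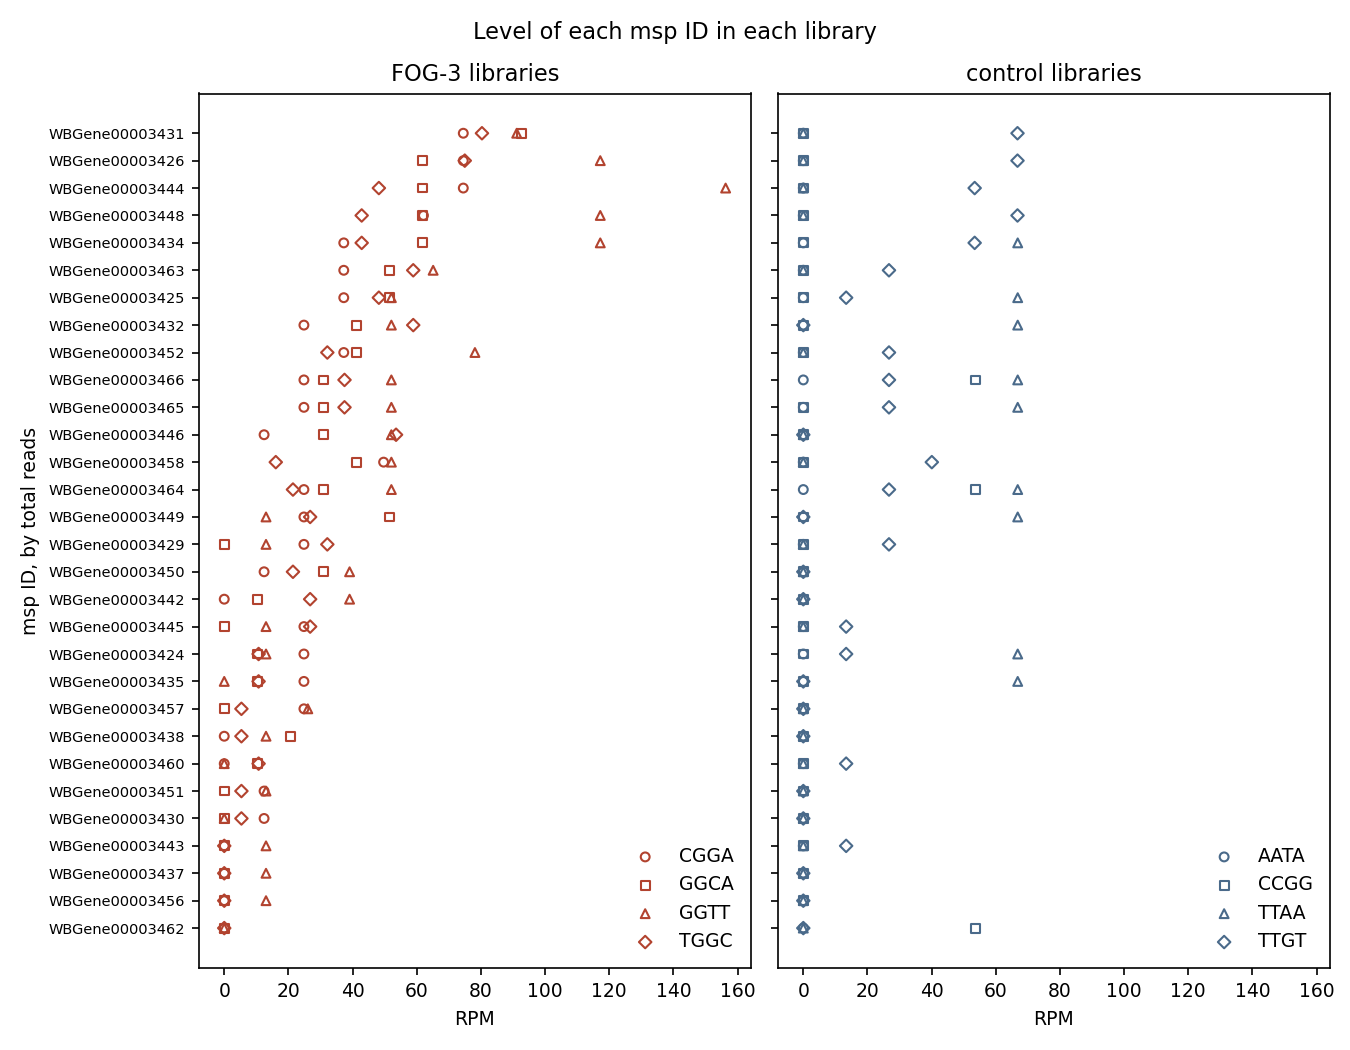
Level of each of the 30 msp IDs in each library, in RPM, with FOG-3 libraries on the left and controls on the right. IDs run from the most reads (42, top) to the fewest (1, bottom), and markers are libraries. In controls most points are at 0, and the points of TTAA above 0 lie at 66.8 RPM, the worth of 1 read there.

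The ratios of single msp copies were set beside those of the whole table, again as a description. Of the 17 msp IDs with 10 or more reads in all libraries together, 15 had a control read. All 15 had a pooled ratio above 1 in RPM, from 1.03 to 6.63, where 87.6% of all such gene IDs did. The cut at 10 reads favours IDs high in FOG-3 libraries, which were the deeper ones. Below it, msp IDs with a control read had ratios from 0 to 2.52, on both sides of 1. The shared direction of the 15 thus rests in part on the cut. With TMM 7 of the 15 were above 1 and 8 below, from 0.44 to 2.87, where 62.5% of all such gene IDs were above 1. The median log2 ratio in RPM was 1.14 for the 15 msp IDs and 1.60 for all 3408 such gene IDs. With TMM these medians were -0.06 and 0.40. IDs with no control read were then added, with the control group set to 3 reads. The medians in RPM were 0.92 for 17 msp IDs and 1.48 for 4505 gene IDs. Every FOG-3 library lay above every control for 5 of the 17 msp IDs in RPM, where 47.6% of all gene IDs with 10 or more reads did so, and for 2 of the 17 with TMM, where 33.2% did.

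**Figure D3:**
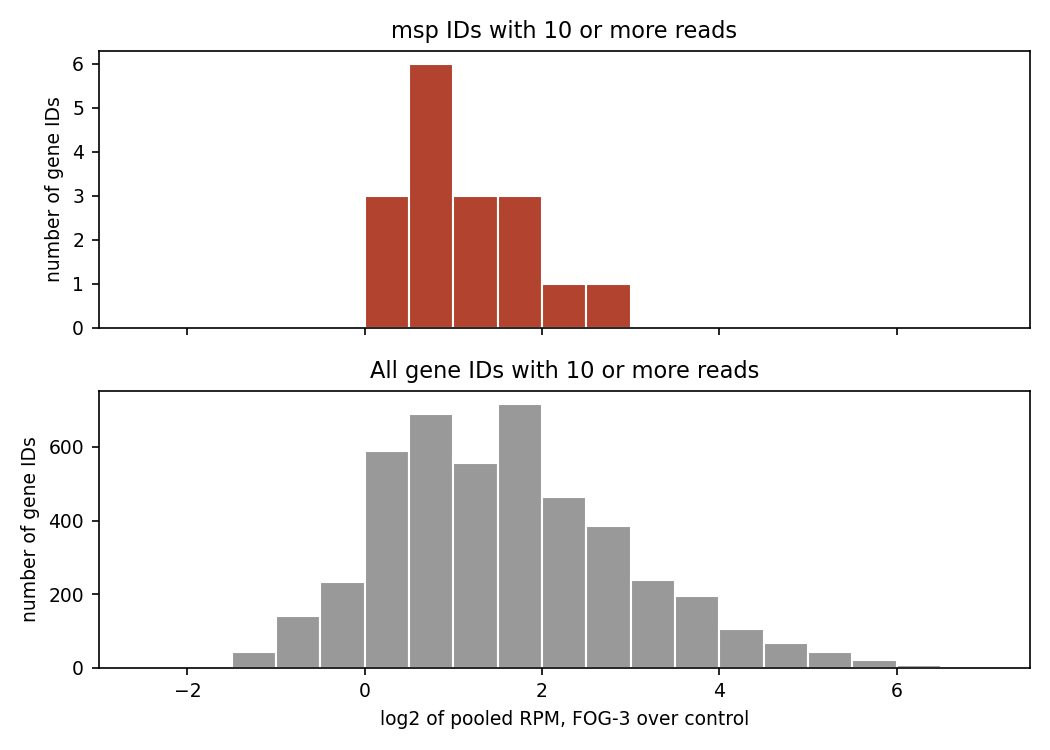
Number of gene IDs by log2 ratio of pooled RPM, FOG-3 over control, for the 17 msp IDs with 10 or more reads (top) and all 4505 gene IDs with 10 or more reads (bottom). IDs with no control read are placed at the ratio obtained with the controls set to 3 reads. All msp IDs lie between 0 and 3, and their median of 0.92 is below that of 1.48 over all gene IDs.

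Most msp IDs had at least 1 read in some control. Of the 30, 9 (30%) had no control read, where 56% of all gene IDs had none. Among IDs with 10 or more reads it was 2 of 17 against 24.4% over all gene IDs. These 2 were WBGene00003446 and WBGene00003450. WBGene00003446 had 1 read in CGGA, 3 in GGCA, 4 in GGTT and 10 in TGGC and 0 in every control. With the control group set to 3 reads its RPM ratio, FOG-3 over control, was 1.89. The counting interval of its RPM ratio had a lower limit of 1.39 and no upper limit. With TMM the ratio at 3 control reads was 0.82, which gives no direction. WBGene00003450 had 1 read in CGGA, 3 in GGCA, 3 in GGTT and 4 in TGGC and 0 in every control. With the control group set to 3 reads its ratio was 1.16 in RPM and 0.50 with TMM. The counting interval of its RPM ratio had a lower limit of 0.79, which gives no direction. WBGene00003462 was the sole msp ID with no FOG-3 read, and it had 1 read, in CCGG.

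Tests of single IDs were limited by these counts. In the edgeR quasi-likelihood fit with TMM factors and the default filter, 886 gene IDs were tested. The calls given above for that fit are at an adjusted p under 0.05. No (0) msp ID passed the filter, so none was tested there. Without the filter all 30 were tested and 0 were called in either direction, where 7.75% of all gene IDs were called higher and 1.08% lower. In that fit 1 of the 30 had an unadjusted p under 0.05. This was WBGene00003446, with an edgeR adjusted p of 0.15. With a filter of 1 CPM in 4 libraries 20 msp IDs were tested and 0 called, where 22.3% of gene IDs were called higher and 3.65% lower. WBGene00003446 then had an edgeR adjusted p of 0.057. It passed that filter only through its reads in the 4 FOG-3 libraries, the group where it is high, so this value is no support for a difference. DESeq2 gave an adjusted p for 17 msp IDs and called 0, with 0 at an unadjusted p under 0.05, where 31.5% of gene IDs were called higher and 2.41% lower.

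The call of WBGene00003446 moved with the scaling, while its size as fitted by edgeR hardly did. Without the filter the edgeR log2 value, FOG-3 over control, was 4.48 (TMM over all rows), 4.60 (total reads) or 4.57 (size factors of DESeq2). With the TMM factors of the filtered gene IDs it was 4.39 (edgeR adjusted p = 0.34). The DESeq2 fit itself gave 2.30 (DESeq2 adjusted p = 0.20). With every control at 0 the edgeR values depend on the prior count, and none of these values is a bound. Without the filter and with total reads as library size, it passed as the 1 msp ID called higher (edgeR adjusted p = 0.034), where 14% of gene IDs were called higher and 0.572% lower. It also passed with the size factors of DESeq2 (edgeR adjusted p = 0.043), where 13.1% were called higher and 0.784% lower. For counts this low a test that misses the threshold does not show that the level was alike in FOG-3 and control libraries. For the fullest ID, WBGene00003431, the log2 fold change without the filter was 0.63 ± 0.70 (SE, edgeR adjusted p = 0.65), an error larger than the value itself.

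Near-identical copies raise the question of how many distinct reads the 458 stand for. How reads that match several copies were counted is not given in the sources used here. Where such a read was counted in each copy, the pool counts it more than once, and where it was dropped, the pool leaves it out. Identical counts, the mark of copies that share all their reads, were not found between any of the 27 msp IDs with 2 or more reads. The sole identical pair was WBGene00003437 and WBGene00003456, each with 1 read in GGTT. Among the 17 with 10 or more reads, 0 matched another msp ID. WBGene00003446 and WBGene00003450 each had the same counts as 1 gene ID elsewhere in the table. Of all gene IDs with 10 or more reads, 10.7% had such a match.

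A group of 3 IDs came close to identical. WBGene00003465 and WBGene00003466 had 2 reads each in CGGA, 3 in GGCA, 4 in GGTT and 7 in TGGC, and in the controls they differed only by 1 read in CCGG. WBGene00003464 had 2 reads in CGGA, 3 in GGCA, 4 in GGTT and 4 in TGGC, and the same control reads as WBGene00003466. Of 136 pairs among the 17 fuller IDs, these held the 2 pairs that differed by 3 reads or fewer over all libraries. The remaining pair of the group, WBGene00003464 and WBGene00003465, differed by 4 reads, as did WBGene00003432 and WBGene00003446, and WBGene00003434 and WBGene00003448. The median pair differed by 12.5 reads. These pairs were picked after their values were seen, and whether they share reads was not tested.

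The fewest distinct reads that the pool could hold is the count of its fullest ID in each library. This was 6 in CGGA, 9 in GGCA, 12 in GGTT and 15 in TGGC, against 0 in AATA, 1 in CCGG, 1 in TTAA and 5 in TTGT. In RPM that gave 74.5 to 156.3 in FOG-3 libraries and 0 to 66.8 in controls, without overlap. The lowest FOG-3 value was only 1.11 times the highest control value, which was 1 read in TTAA, so the gap is narrower than 1 read there. With TMM the pooled log2 ratio of these counts was -0.29.

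The block's ends do not separate levels. The first and last numbers inside it, WBGene00003424 and WBGene00003466, had 8 and 20 reads. Just outside, WBGene00003423 had 41 FOG-3 reads and 4 control reads, and WBGene00003467 had 12 and 3. WBGene00003468 had 7 reads in CGGA, 7 in GGCA, 10 in GGTT and 11 in TGGC, against 5 in TTGT and 0 in the other 3 controls, a profile like those of the fullest msp IDs. Whether these neighbours are msp genes is not given in the sources used here. The IDs inside the block are called msp by their number alone, as no symbol was matched to them. With the 6 nearest neighbours added, 3 on either side, the pooled log2 ratio with TMM was 0.07.

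The pooled result rests on the scaling and on the control TTGT more than on any choice of IDs. With TMM factors set from the gene IDs that passed the filter, the log2 ratio was 0.00. It was 1.21 with total reads and 1.20 with the size factors of DESeq2, and 0.24 and 0.32 with upper-quartile and TMMwsp factors. Without the fullest ID it was 0.00 with TMM. TMM factors set from all gene rows were not applied to the pool. For the fullest ID, WBGene00003431, they gave a fitted log2 value of 0.63 without the filter. With the factors of the filtered gene IDs that value was 0.06, so its level with TMM moved with the rows that set the factors. Fitted as 1 row of the edgeR table, the summed msp reads had a log2 fold change of 0.10, where the median over 887 rows was 0.74.

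**Figure D4:**
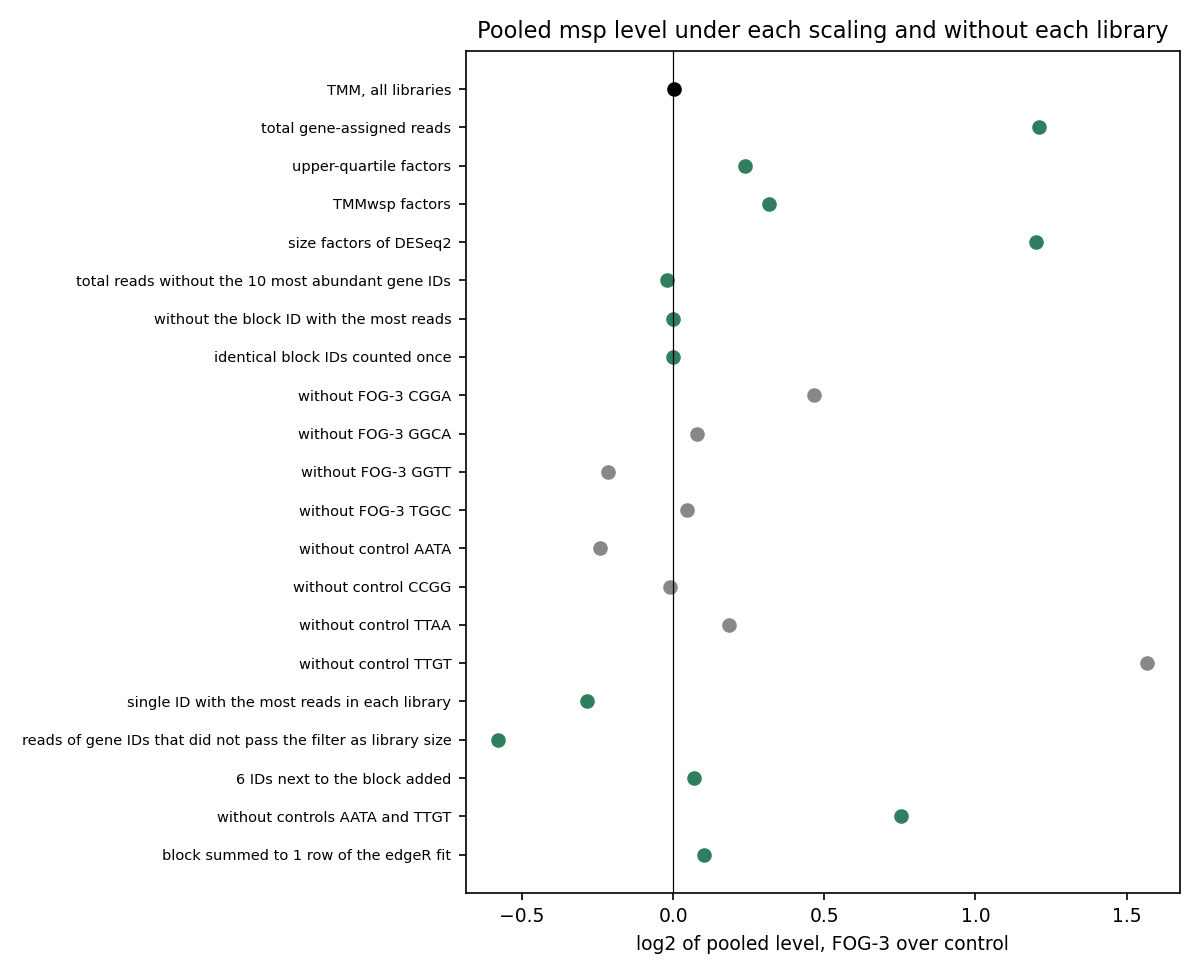
Log2 ratio of the pooled msp level, FOG-3 over control, with TMM scaling (black), under other scalings and choices of IDs (green) and without each library in turn (grey). The values run from -0.58 to 1.57, and the highest is that without control TTGT.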

How the data were processed

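Raw read counts for 12240 gene IDs and 8 libraries were deposited by the authors in 1 table. The tools named in the submitters' processing notes are STAR 2.4.2 and HTSeq. Genome build, annotation, strand setting, handling of multiply mapped reads and barcode collapse were not stated there, and uncollapsed reads would not be independent molecules. Every gene row held at least 1 read. Rows that name no gene stayed out of library sizes. They held 9.73% to 12.4% (outside genes) and 0.573% to 0.696% (ambiguous) of reads after FOG-3 purification, against 2.41% to 5.54% and 0.311% to 0.478% without antibody.

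Pooled reads were divided by gene-assigned totals or TMM-scaled sizes. Counts were tested over the whole table by the quasi-likelihood F test of edgeR 4.0.16 under R 4.3.3 (group as the only term, minimum count 10, minimum total 15, Benjamini-Hochberg, threshold 0.05), with DESeq2 1.42.0 and limma-voom 3.58.1 as alternatives. An SE is the log2 fold change over the square root of its F statistic. Named IDs are the 10 with the most reads, any called ID and any with identical counts. WBGene00003450, WBGene00003462, WBGene00003464, WBGene00003465 and the block's ends and neighbours were named after their values were seen. Members and lists were chosen with earlier results of these data known. Lists of other sperm, oocyte and tissue genes need symbols and were not analysed here. All p-values reflect spread between libraries, which may be technical.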

Additional observations from a re-analysis of the deposited data

Results flagged for a closer look

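Dixon's test at the 95% level was applied to 32 groups of 4 values, where chance flags about 1 in 20. FOG-3 library GGTT stood apart from the other 3 in pooled msp RPM (gap over range 0.893), in msp IDs at equal depth (0.946) and in RPM without the 10 most abundant gene IDs (0.844). With TMM scaling GGTT did not pass, although it was again the highest, at 800 CPM beside 508 to 563 in the other 3. These measures all rest on the same msp reads of GGTT and are not separate flags. In controls 1 library held all reads of WBGene00003431, WBGene00003426, WBGene00003444, WBGene00003448, WBGene00003463 and WBGene00003452 (TTGT) and of WBGene00003432 (TTAA), which gives a gap over range of 1 by construction when the other 3 are at 0.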

How the results depend on the processing

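The pooled log2 ratio was 0.00 with TMM factors from the filtered gene IDs, and its spread between libraries was about 1.34 on that scale. It moved by over 1.5-fold with total reads (1.21), the size factors of DESeq2 (1.20), without controls AATA and TTGT (0.75) and without control TTGT. Without 1 library at a time it ran from -0.24 to 1.57, the highest without TTGT, and with reads of gene IDs below the filter as library size it was -0.58 (the cause was not tested beyond these scalings). The number of msp IDs tested was 0 in the planned fit, 30 without a filter under each of 4 scalings, 20 with 1 CPM in 4 libraries, 17 with DESeq2 and 8 with a minimum count of 3, as the filters dictate. Calls stayed at 0 in 20 of 22 alternative fits, 15 of which tested no msp ID and so say nothing about stability, and were 1 without a filter with total reads or the size factors of DESeq2. Leaving out each library in turn moved the difference in msp IDs at equal depth between 4.14 and 7.14. Settings chosen after seeing the data were the fits without a filter under fixed, total or DESeq2 scaling, the minimum count of 3, the fullest ID alone, the neighbouring IDs, gene IDs below the filter as library size, leaving out AATA and TTGT, leaving out each library for the msp IDs at equal depth, and identical counts at 10 or more reads. No paired analysis was possible because the columns carry no replicate numbers. Depth limits all single-ID results: a count of 0 allows 16.1 to 39.1 RPM in FOG-3 libraries and 40.1 to 200.5 in controls.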
